A study of Arabidopsis thaliana with 10 samples.

Results

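The genes described here are 7 exopolygalacturonases of Arabidopsis pollen, taken as a list of identifiers from the 27394 genes of the count tables. They were PGA4 (AT1G02790), the 4 members of a cluster on chromosome 3 (AT3G07820, AT3G07830, AT3G07840 and AT3G07850), AT3G14040 and AT5G48140. RefSeq names AT1G02790 polygalacturonase 4 and describes the other 6 only as pectin lyase-like superfamily proteins. The members were chosen by their identifiers with their counts and fold changes in these 10 libraries already known, so the levels and fold changes of the 7 genes are given as a description, with standard errors (SE) but no p-values.

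Exopolygalacturonases remove galacturonic acid units from the end of homogalacturonan, the main pectin of the plant cell wall. Pectin methylesterases strip methyl groups from this polymer, which opens it to polygalacturonases and pectate lyases. The wall at the tip of a growing pollen tube is largely pectin, and in many flowering plants genes of these enzymes are among the most abundant transcripts of mature pollen.

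Messenger RNA was sequenced from pollen of greenhouse plants in the Col-0 ecotype, in 5 groups of 2 libraries, and reads were counted over genes, transposable elements (TEs) and intergenic intervals. WT Col-0 was untransformed pollen. pLAT52::RTL1 and pMGH3::RTL1 pollen carried a Myc-tagged RTL1, an RNase III-like protein that blocks production of small interfering RNAs, under a promoter preferentially active in the vegetative cell (LAT52) or in the male germline (MGH3), with 2 independent transgenic lines for each construct. The authors describe LAT52 as active already in the late microspore, before its preference for the vegetative cell. Ages were not stated for any group.

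The other experiment sorted pollen grains of F1 plants heterozygous for nrpd1a-3, a T-DNA allele of the largest subunit of RNA polymerase IV, and for the fluorescence-tagged line FTL1230, a pLAT52::DsRed transgene linked to NRPD1a. Red grains made up WT FTL and grains without red fluorescence made up nrpd1a-3 FTL, and both were sorted at the same time, so both groups came from the same kind of plant and only the red group carried DsRed. Sorting, the DsRed transgene, the heterozygous F1 parent plants and the experiment all separate WT FTL from WT Col-0 and cannot be told apart. The transgene's mRNA (RTL1, AT4G15417) was found where the labels put it, at 270 and 138 reads under the LAT52 promoter and 134 and 156 under the MGH3 promoter, with 0 in the other 6 libraries. NRPD1A (AT1G63020) had at most 12 reads in any library, too few to check the nrpd1a-3 label.

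Library totals over genes and TEs ranged from 43490027 to 53471964 reads, and the 100 most abundant features held 60.6% to 72.4% of them. All 10 sperm cell markers and all 10 vegetative cell markers of the lists had reads in every group, as a pollen sample should show. Leaf markers summed to 0.430 to 36.1 CPM (reads in 1000000 gene and TE reads), and 4 of 5 tapetum markers had no read in any library. The 2 libraries of a group differed by more than sampling noise in every group (chi-square per degree of freedom 25.4 to 489), with the widest spread in WT FTL and nrpd1a-3 FTL.

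The 7 genes together took a large and nearly level part of the RTL1 experiment's reads. Of all gene and TE reads, WT Col-0 gave 5.10% and 5.26% to the family, pLAT52::RTL1 gave 5.67% and 5.21%, and pMGH3::RTL1 gave 5.30% and 5.45%. Among the sorted libraries, WT FTL gave 4.18% and 2.07%, and nrpd1a-3 FTL gave 2.35% and 1.43%. The 4 sorted libraries were all below the 6 of the RTL1 experiment, and the FTL groups overlapped each other. The 95% Wilson interval of each share reached at most 0.00654 percentage points to either side, which covers counting error only. In whole pollen, fewer cells of a type and less RNA per cell cannot be told apart.

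What the family's reads were made of differed far more than their sum. AT1G02790 and AT3G07820 held 72.4% and 65.9% of the family's reads (WT Col-0), 69.8% and 64.6% (pMGH3::RTL1), and 83.4% to 84.9% in the 4 sorted libraries, but 29.0% and 33.9% in pLAT52::RTL1. AT3G07850 and AT3G14040 held 14.6% and 20.4% (WT Col-0), 17.2% and 23.2% (pMGH3::RTL1), 55.6% and 48.4% (pLAT52::RTL1) and 4.27% to 6.66% in the sorted libraries. The 2 pLAT52::RTL1 libraries were therefore the only ones in which the AT3G07850 and AT3G14040 pair outnumbered AT1G02790 and AT3G07820.

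**Figure D1:**
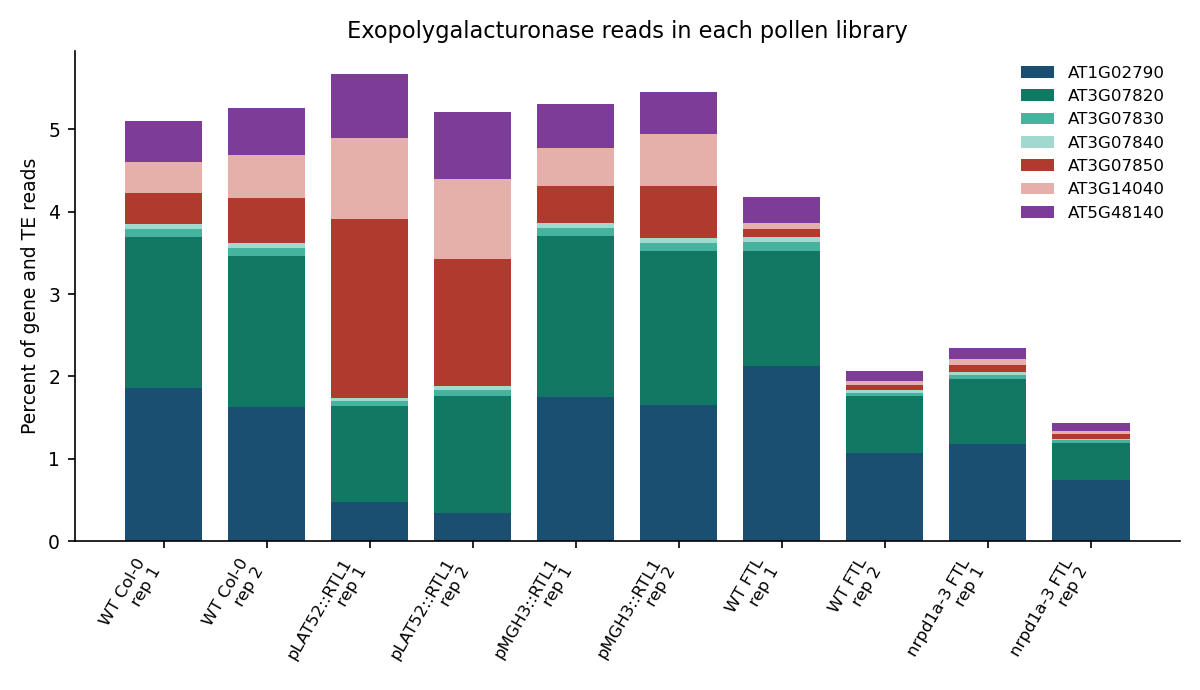
Stacked bars of the percent of gene and TE reads that fell on each of the 7 genes, 1 bar for each library (rep, replicate). The bars of the RTL1 experiment all reach between 5.10% and 5.67%, the red and pink parts (AT3G07850 and AT3G14040) are the larger ones in pLAT52::RTL1 alone, and the sorted FTL bars end between 1.43% and 4.18%.

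Levels of different genes were compared as CPM divided by the RefSeq transcript length in kilobases, and are given as mean ± SD of 2 libraries. In WT Col-0, AT3G07820 (12168 ± 27.7) and AT1G02790 (10337 ± 944) were highest, followed by AT5G48140 (3463 ± 299), AT3G07850 (2679 ± 690) and AT3G14040 (2472 ± 621), and AT3G07830 (623 ± 15.2) and AT3G07840 (487 ± 12.3) were lowest. The libraries of AT3G07850 overlapped those of AT3G14040, and all other neighbours in this order had libraries that did not overlap. Within each WT Col-0 library AT3G07850 was above AT3G14040 (2191 against 2033 and 3167 against 2911). The order of group means was the same in pMGH3::RTL1, and in WT Col-0 it did not change when the gene span of the tables replaced the transcript length. In pLAT52::RTL1, AT3G07850 came first with 10793 ± 2553, AT3G07820 second with 8575 ± 1197 and AT1G02790 only after AT3G14040 and AT5G48140, with 2439 ± 575, and the libraries of AT3G07850 and AT3G07820 overlapped.

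Sorted pollen had AT1G02790 first and AT3G07820 second, at 9449 ± 4432 and 6961 ± 3346 (WT FTL) and at 5703 ± 1815 and 4107 ± 1577 (nrpd1a-3 FTL). The libraries of these genes overlapped within each group, but AT1G02790 was the higher gene within every sorted library. The values were 12583 against 9327 and 6315 against 4594 (WT FTL), and 6986 against 5222 and 4419 against 2992 (nrpd1a-3 FTL). AT5G48140 followed in both groups, at 1392 ± 827 and 775 ± 188. The other 4 genes had group means of 202 to 480. Among all genes, AT1G02790 ranked between 3rd and 54th over the 10 libraries, AT3G07820 between 4th and 43rd, AT3G07850 between 4th and 212th and AT3G14040 between 16th and 290th.

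**Figure D2:**
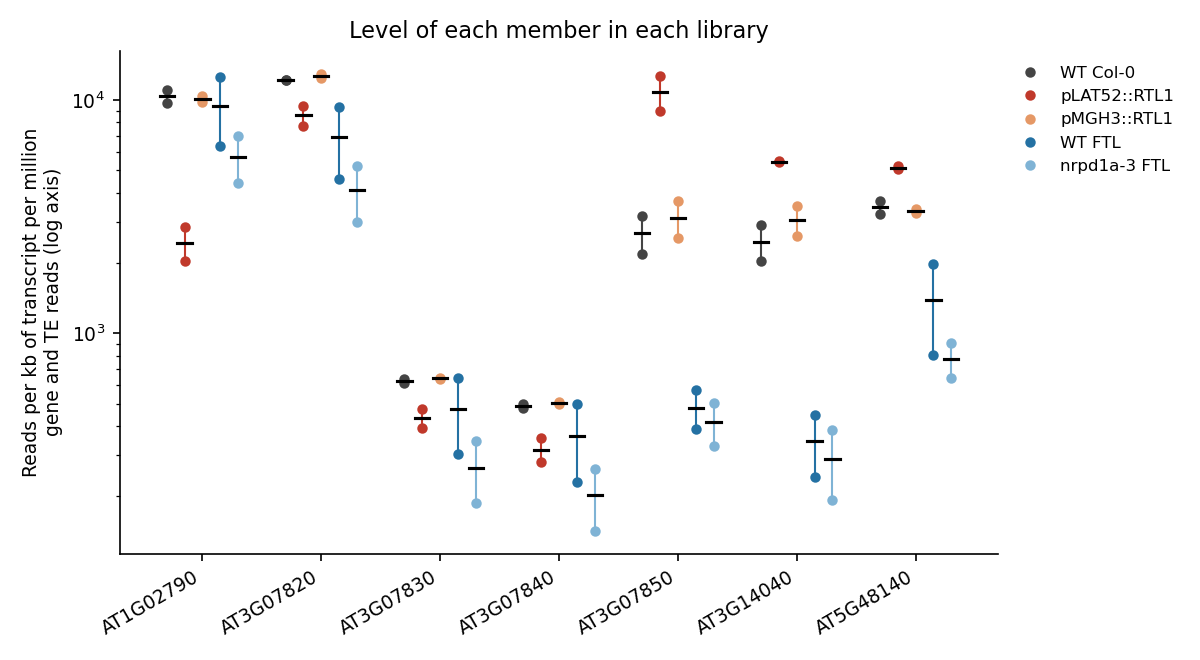
Level of each member in each library, as CPM divided by the transcript length in kilobases, on a log axis, with 1 point for each library and a black bar at the mean of 2 libraries. AT1G02790 is lowest in the red points (pLAT52::RTL1, 2033 and 2846), whereas AT3G07850 is highest there (8988 and 12599), and both AT3G07850 and AT3G14040 are lowest in the blue points (the sorted FTL libraries, 194 to 571).

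PGA4 (AT1G02790, chromosome 1, 610391 to 612324, minus strand, 4 exons) encodes the exopolygalacturonase that gave the family's most distant coding sequence, with 52.4% to 52.9% identity to the other 6. It was covered by 806866 and 844288 reads (WT Col-0), 246404 and 176772 (pLAT52::RTL1), 901261 and 851191 (pMGH3::RTL1), 1115456 and 549991 (WT FTL) and 604089 and 398427 (nrpd1a-3 FTL). Both pLAT52::RTL1 libraries lay below all others. The log2 fold change of pLAT52::RTL1 against WT Col-0 was -2.57 ± 0.18 (SE), the largest drop in the family, and it stayed between -2.80 and -2.08 under the 14 alternatives tried. Against pMGH3::RTL1 it was -2.54 ± 0.18, with pMGH3::RTL1 against WT Col-0 at -0.03 ± 0.18.

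The 250 bases before the RefSeq start of AT1G02790 are shown because it is the member that fell furthest. The capitals mark a MEF2-type CArG box, a motif bound by the MIKC* MADS-box factors of Arabidopsis pollen, 30 to 21 bases before the start. The same letters hold TATAAA, the core of a TATA box, so the match cannot be assigned to either motif.
AT1G02790 (TAIR10.1, chr1:612325-612574, minus strand, read 5′ to 3′): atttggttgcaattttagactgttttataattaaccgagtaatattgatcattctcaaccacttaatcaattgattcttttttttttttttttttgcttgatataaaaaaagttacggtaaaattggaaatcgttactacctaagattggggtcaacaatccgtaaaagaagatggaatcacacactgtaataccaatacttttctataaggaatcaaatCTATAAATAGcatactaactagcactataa
On either strand this box occurred in 1 of the 7 promoters and in 2.15% of the 27443 promoters of 250 bases searched, and AGAAA, the core letters of the pollen promoter of tomato LAT52, occurred in all 7 but also in 82.5% of all promoters.

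AT3G07850 (chromosome 3, 2505547 to 2507528) and AT3G14040 (chromosome 3, 4648348 to 4650319), both on the minus strand with 4 exons, form a pair with 97.2% identity in the coding sequence. They are shown together because their reads cannot be fully separated. The longest stretch without a difference was 119 bases, shared by both genes letter for letter.
AT3G07850 (chr3:2506365-2506483, minus strand) and AT3G14040 (chr3:4649145-4649263, minus strand), TAIR10.1: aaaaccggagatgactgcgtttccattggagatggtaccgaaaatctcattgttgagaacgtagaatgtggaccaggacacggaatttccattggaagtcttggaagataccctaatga
Of the windows of 100 bases, the length of 1 read, in each RefSeq transcript, 2.34% of those of AT3G07850 and 2.23% of those of AT3G14040 occurred elsewhere in the genome, and none did for the other 5 members. Only exact matches in unspliced sequence were found this way, 38 windows in each gene of the pair, so windows across an exon junction could be missed. In the other gene's spliced transcript 44 windows occurred. How reads with several positions were counted is not given in the sources used here.

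The pair also shared sequence upstream of the start. Over 250 bases before the RefSeq start the identity in a pairwise alignment was 60.2%, against 42.7% to 55.3% for the other 20 pairs of members. The promoters are shown because these genes moved in the same direction in pLAT52::RTL1 and in WT FTL, and the capitals mark the stretches of at least 12 bases found letter for letter in both, 90 bases in all with a longest stretch of 27.
AT3G07850 (chr3:2507559-2507808, minus strand): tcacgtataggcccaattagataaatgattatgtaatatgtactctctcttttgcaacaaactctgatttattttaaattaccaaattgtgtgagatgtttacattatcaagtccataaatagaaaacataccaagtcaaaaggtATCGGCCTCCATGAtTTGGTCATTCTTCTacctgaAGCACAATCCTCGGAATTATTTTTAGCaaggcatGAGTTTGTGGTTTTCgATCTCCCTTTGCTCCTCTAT
AT3G14040 (chr3:4650320-4650569, minus strand): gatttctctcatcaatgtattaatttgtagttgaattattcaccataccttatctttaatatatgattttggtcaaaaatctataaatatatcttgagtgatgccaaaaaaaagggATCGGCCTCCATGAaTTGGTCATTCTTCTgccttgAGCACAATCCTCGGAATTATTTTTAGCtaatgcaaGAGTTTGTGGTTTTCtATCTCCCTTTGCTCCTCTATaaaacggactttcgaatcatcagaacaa
The first shared stretch begins 105 bases before the start of AT3G07850 and 134 bases before that of AT3G14040, on the RefSeq annotation of TAIR10.1.

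AT3G07850 was covered by 164079 and 282433 reads (WT Col-0), 1114006 and 798272 (pLAT52::RTL1), 228197 and 326648 (pMGH3::RTL1), 51675 and 34710 (WT FTL) and 44500 and 30176 (nrpd1a-3 FTL). AT3G14040 was covered by 159316 and 271614 reads (WT Col-0), 504870 and 501036 (pLAT52::RTL1), 242875 and 325964 (pMGH3::RTL1), 42111 and 22641 (WT FTL) and 35684 and 18663 (nrpd1a-3 FTL). In both genes the pLAT52::RTL1 libraries were the highest and the 4 sorted libraries the lowest, without overlap with the rest. The log2 fold change of pLAT52::RTL1 against WT Col-0 was 1.52 ± 0.23 for AT3G07850 and 0.65 ± 0.20 for AT3G14040.

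The value of AT3G14040 fell to 0.40 without WT Col-0 replicate 1, where the call was lost. The call was also lost with nearly the same value without either pLAT52::RTL1 library (0.64 and 0.68), with edgeR (0.65) and in a fit of all 10 libraries (0.66). AT3G07850 kept a value between 1.27 and 2.01 under all 14 alternatives. The ratio of AT3G07850 to AT3G14040 reads was 1.03 and 1.04 (WT Col-0) and 0.940 and 1.00 (pMGH3::RTL1), but 2.21 and 1.59 (pLAT52::RTL1). WT FTL had ratios of 1.23 and 1.53, and nrpd1a-3 FTL of 1.25 and 1.62.

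AT5G48140 (chromosome 5, 19518770 to 19520528, minus strand, 4 exons) shares 76.8% to 78.7% of its coding sequence with AT3G07820, AT3G07830 and AT3G07840, although it lies on another chromosome. It was covered by 218484 and 294031 reads (WT Col-0), 399237 and 415666 (pLAT52::RTL1), 269955 and 260595 (pMGH3::RTL1), 160625 and 64428 (WT FTL) and 71910 and 53050 (nrpd1a-3 FTL). Its normalised counts overlapped between pLAT52::RTL1 (303012 and 323690) and WT Col-0 (276869 and 314588), and its log2 fold change was 0.08 ± 0.16. This gene depended on the scaling, as the value was 0.57 and passed the threshold when libraries were scaled by total reads.

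AT3G07820 (chromosome 3, 2496440 to 2498095, minus strand, 4 exons) had the highest mean level of the cluster in every group except pLAT52::RTL1. It was covered by 799839 and 949367 reads (WT Col-0), 598835 and 733250 (pLAT52::RTL1), 1007495 and 966151 (pMGH3::RTL1), 740017 and 358132 (WT FTL) and 404141 and 241443 (nrpd1a-3 FTL). Both pLAT52::RTL1 libraries were below both of WT Col-0 and of pMGH3::RTL1, and the log2 fold change against WT Col-0 was -0.98 ± 0.17, or -0.50 when scaled by total reads.

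The neighbours AT3G07830 (PGA3, chromosome 3, 2499243 to 2501021) and AT3G07840 (chromosome 3, 2501893 to 2503565) lie at higher coordinates than AT3G07820, also on the minus strand. Both have 4 exons, and gave counts close to those of the intergenic interval beside each of them. AT3G07830 was covered by 41988 and 48304 reads (WT Col-0), 30771 and 37034 (pLAT52::RTL1), 50055 and 50635 (pMGH3::RTL1), 51616 and 23791 (WT FTL) and 26868 and 15187 (nrpd1a-3 FTL). AT3G07840 had 27950 and 32113, 18614 and 23678, 33376 and 33837, 33795 and 15473, and 17359 and 9883 reads in the same order of libraries. Both genes followed AT3G07820, to which the ratio of reads was 0.0497 to 0.0697 for AT3G07830 and 0.0311 to 0.0457 for AT3G07840.

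The intergenic interval between AT3G07820 and AT3G07830 (2498095 to 2499243) held 87.0% to 99.0% as many reads as AT3G07830 in the 10 libraries. The interval between AT3G07830 and AT3G07840 (2501021 to 2501893) held 98.1% to 99.2% as many as AT3G07840. The interval beyond AT3G07840 (2503565 to 2503934) held at most 222 reads. An interval with at least 90% of the reads of the lower of its 2 genes was found in 17 of 261 gene-to-gene intervals with at least 1000 reads in both genes in WT Col-0 (6.51%). The intervals beside AT3G07830 and AT3G07840 toward AT3G07820 are themselves among these 17. The program that made the counts is not given in the sources used here, and the origin of the interval reads was not tested.

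Subtracting each interval's reads left 202 to 3985 reads for AT3G07830 and 125 to 452 for AT3G07840. With these remainders in place of the counts, an alternative chosen after seeing the data, the log2 fold change of pLAT52::RTL1 against WT Col-0 went from -1.01 ± 0.17 to 0.43 for AT3G07830 and from -1.10 ± 0.17 to -0.00 for AT3G07840, and neither passed the threshold. The direction given for these 2 genes therefore holds only for the counts as deposited.

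**Figure D3:**
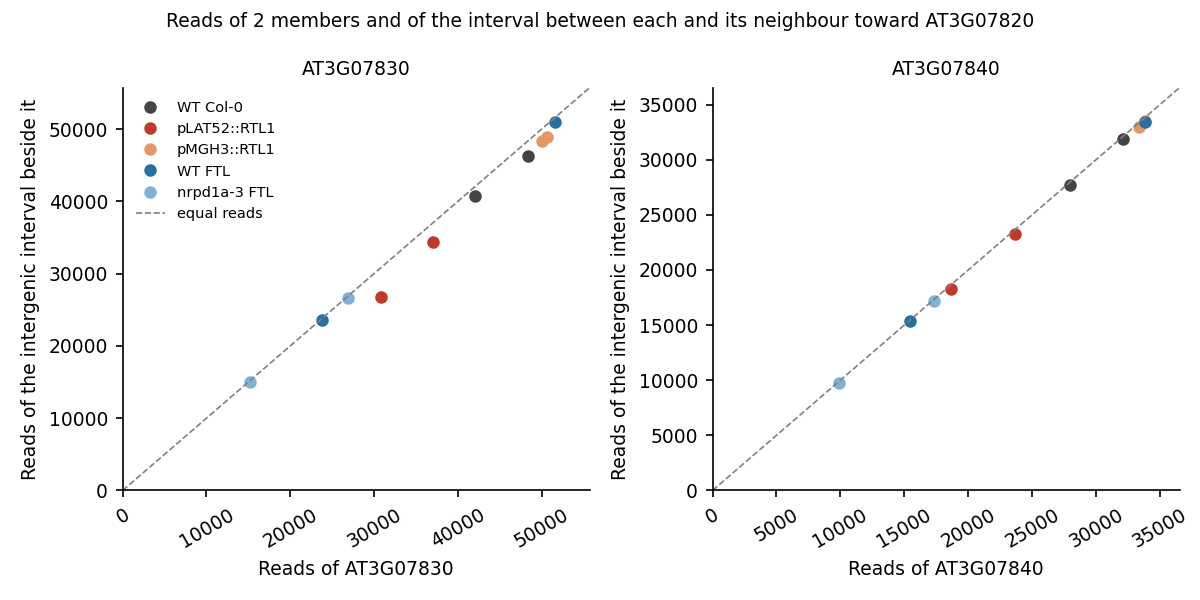
Reads of AT3G07830 (left) and AT3G07840 (right) on the horizontal axis against reads of the intergenic interval between each gene and its neighbour toward AT3G07820 on the vertical axis, 1 point for each library. The points lie on or just under the dashed line of equal reads, with the pLAT52::RTL1 libraries furthest below it for AT3G07830 (87.0% and 92.9%).

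The coding sequences of AT3G07820, AT3G07830 and AT3G07840 were 81.3% to 82.5% identical. The stretch in which AT3G07820 and AT3G07840 agree longest, 90 bases across the junction of coding exons 2 and 3, is shown with the same bases of AT3G07830 and AT5G48140. Capitals mark differences from AT3G07820, of which there are 4 in AT3G07830, 0 in AT3G07840 and 12 in AT5G48140, and the junction follows base 76.
AT3G07820 (chr3:2497427-2497592, minus strand): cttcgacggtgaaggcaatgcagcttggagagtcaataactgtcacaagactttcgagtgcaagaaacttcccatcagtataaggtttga
AT3G07830 (chr3:2500337-2500514, minus strand): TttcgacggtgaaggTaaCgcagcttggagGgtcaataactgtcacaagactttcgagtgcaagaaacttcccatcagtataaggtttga
AT3G07840 (chr3:2502868-2503054, minus strand): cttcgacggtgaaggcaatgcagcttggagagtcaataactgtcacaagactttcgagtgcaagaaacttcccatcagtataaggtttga
AT5G48140 (chr5:19519815-19519984, minus strand): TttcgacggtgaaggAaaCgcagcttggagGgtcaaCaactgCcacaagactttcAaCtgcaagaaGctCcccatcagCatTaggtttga
The coordinates, on TAIR10.1, include the intron.

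To compare these genes with and without RTL1 from the LAT52 promoter, counts were compared by DESeq2 over all genes and TEs, and features with an adjusted p-value under 0.05 are referred to as called. In pLAT52::RTL1 against WT Col-0, 6 of 7 members were called, 2 higher and 4 lower, where 14.3% of 11002 features tested were called (6.53% higher and 7.77% lower). The median log2 fold change was -0.98 over the members and -0.01 over all features tested. This median and the 4 lower members include AT3G07830 and AT3G07840. With the interval reads subtracted, these genes were at 0.43 and -0.00 and were not called. The groups did not overlap in 6 members, as in 57% of the features. Since the counts chose the members, nothing is read from these numbers. Scaling by total reads moved the median of all features to 0.49. With it 7 members were called, as were 3294 of 12011 features tested (2874 higher and 420 lower). Every member kept its sign.

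RTL1 from the germline promoter gave smaller differences. None of 7 was called in pMGH3::RTL1 against WT Col-0 by DESeq2, by edgeR or at an unadjusted p under 0.05, where DESeq2 called 0.0217% of 27651 features (0.0145% higher and 0.00723% lower). The log2 fold changes ranged from -0.05 ± 0.16 for AT5G48140 to 0.31 ± 0.20 for AT3G14040, and the groups did not overlap in 3 members, as in 24.2% of the features. Directly between the constructs, 5 of 7 members were called, AT3G07850 higher (1.30 ± 0.23) and AT1G02790, AT3G07820, AT3G07830 and AT3G07840 lower in pLAT52::RTL1 (-2.54 to -1.05), where 12.9% of 10497 features were called (5.53% higher and 7.36% lower). AT3G14040 (0.34 ± 0.20) and AT5G48140 (0.14 ± 0.16) were not called. With the interval reads subtracted, AT3G07830 (0.45) and AT3G07840 (-0.38) were not called either. The groups did not overlap in 7 of 7 members, as in 52.6% of the features. The comparisons of the RTL1 experiment share libraries and are not independent of each other.

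Loss of Pol IV in sorted pollen was assessed by nrpd1a-3 FTL against WT FTL. None of the 7 members was called by DESeq2, by edgeR or at an unadjusted p under 0.05, where DESeq2 called 0.008% of 24995 features. The log2 fold changes ran from -0.56 ± 0.47 for AT3G07840 to 0.09 ± 0.42 for AT3G07850, and the groups overlapped in all 7 members, while 23.6% of the features did not overlap. The 95% intervals were wide, from -1.31 to 0.46 for AT1G02790 and from -0.73 to 0.90 for AT3G07850. WT FTL replicate 1 had the highest read count of the 4 sorted libraries for all 7 members, and without it the log2 fold change of AT1G02790 went from -0.42 to 0.03 and that of AT5G48140 from -0.52 to 0.13.

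Sorted wild-type pollen differed most from unsorted WT Col-0 in the AT3G07850 and AT3G14040 pair. In WT FTL against WT Col-0 the log2 fold change was -2.38 ± 0.31 for AT3G07850, -2.76 ± 0.32 for AT3G14040 and -1.24 ± 0.34 for AT5G48140, while AT1G02790 was at -0.05 ± 0.31. These 3 of 7 members were called, all lower, where 30.3% of 16312 features were called (14.9% higher and 15.4% lower). The groups did not overlap in 4 members, as in 66.7% of the features. The other 4 had values of -0.72 to -0.05. Without WT FTL replicate 1, AT3G07820 was at -1.16, AT3G07830 at -0.79 and AT3G07840 at -0.83. With the interval reads subtracted, AT3G07830 went from -0.32 to -1.95 and was called, with remainders of 608 and 264 reads (WT FTL) and 1260 and 2032 (WT Col-0).

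**Figure D4:**
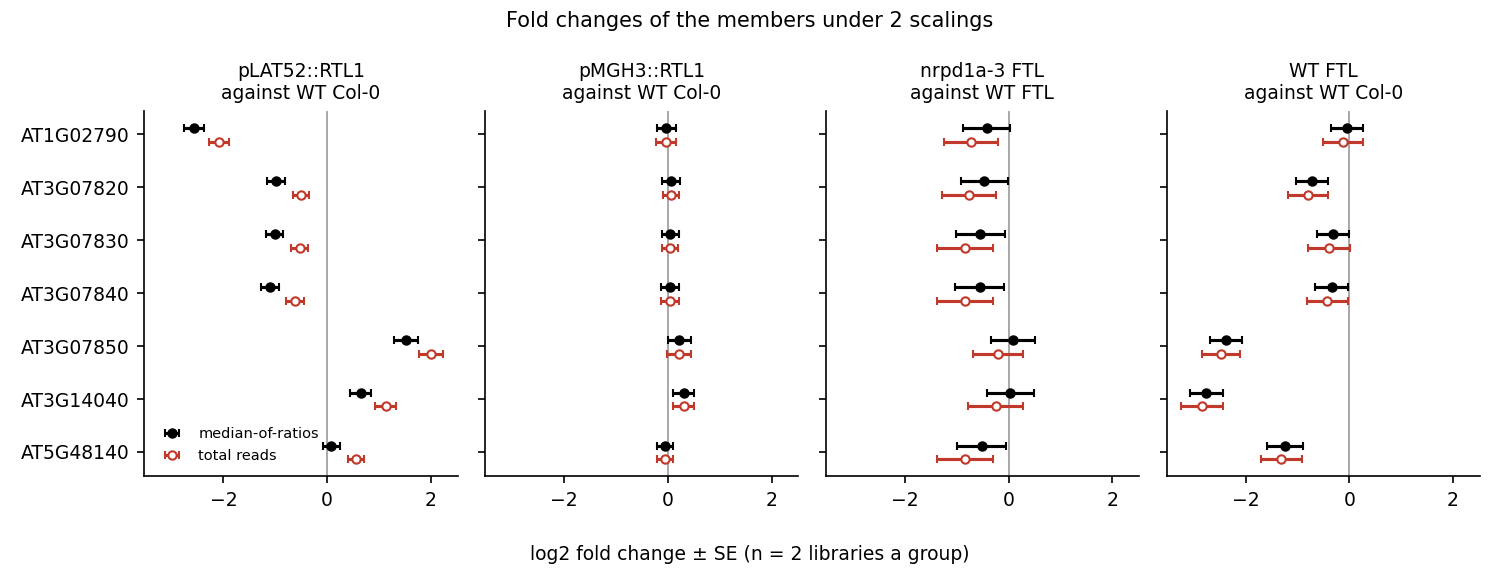
Log2 fold change ± SE of each member in 4 comparisons of 2 libraries against 2, with DESeq2's median-of-ratios size factors (filled) and with total reads as size factors (open). In pLAT52::RTL1 against WT Col-0 the members spread from -2.57 to 1.52, in pMGH3::RTL1 they lie between -0.05 and 0.31, and in WT FTL against WT Col-0 AT3G07850 and AT3G14040 lie furthest below 0.

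Ratios of reads within a library do not depend on scaling. The ratio of AT3G07850 to AT1G02790 reads was 0.203 and 0.335 (WT Col-0), 4.52 and 4.52 (pLAT52::RTL1), 0.253 and 0.384 (pMGH3::RTL1), 0.0463 and 0.0631 (WT FTL), and 0.0737 and 0.0757 (nrpd1a-3 FTL). By geometric means this was 17.3-fold the WT Col-0 ratio in pLAT52::RTL1, 1.20-fold in pMGH3::RTL1 and 0.207-fold in WT FTL, and nrpd1a-3 FTL had 1.38-fold the ratio of WT FTL. AT3G14040 over AT1G02790 changed 9.56-fold, AT5G48140 over AT1G02790 6.36-fold and AT3G07820 over AT1G02790 3.01-fold between WT Col-0 and pLAT52::RTL1, and for each of these ratios both pLAT52::RTL1 libraries lay above the other 8.

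**Figure D5:**
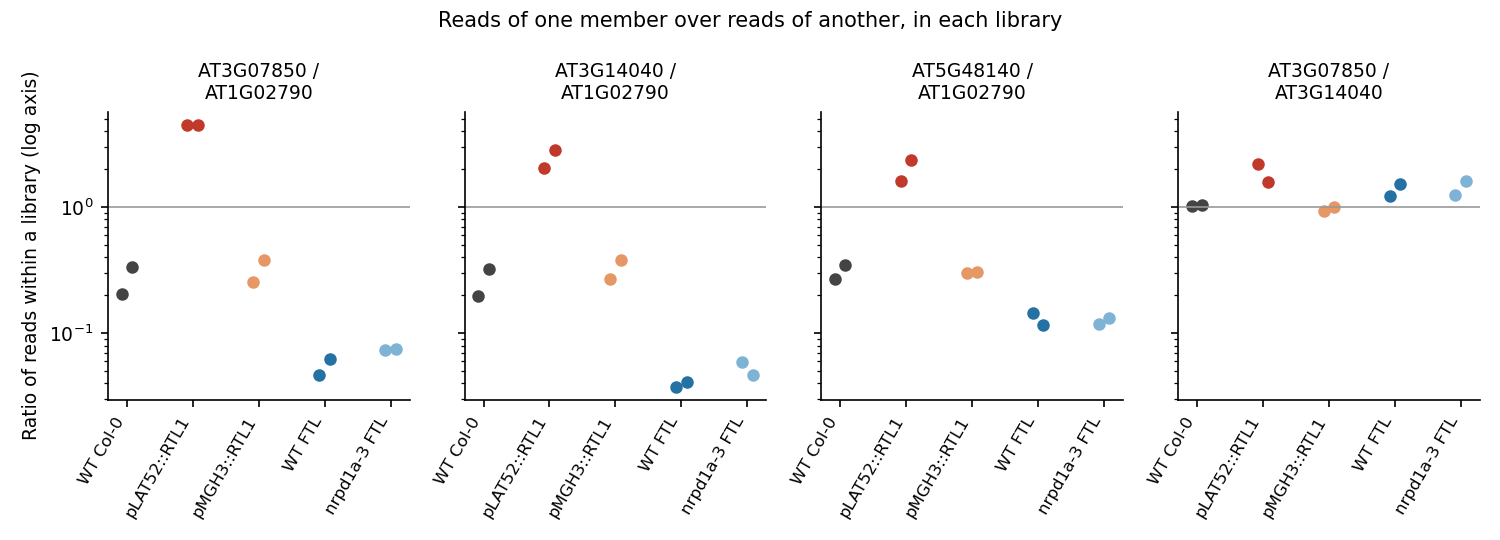
Ratio of reads of one member to reads of another within each library, on a log axis, with 1 point for each library and a grey line at equal reads. The 2 pLAT52::RTL1 points stand above all others in the first 3 panels (4.52 and 4.52 for AT3G07850 over AT1G02790), and the sorted FTL points lie lowest there.

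The effects of pLAT52::RTL1 and nrpd1a-3 FTL, each against its own control, were also set against each other in a fit of all 10 libraries. AT1G02790 had a log2 difference of -2.23 ± 0.44, the only one of 7 members called, where 2.73% of 11852 features were called (2.16% lower). With edgeR no member and no feature was called (1530 features had an unadjusted p under 0.05), while 2 members had an unadjusted p under 0.05 by DESeq2, and with total reads as size factors the difference of AT1G02790 was -1.35 and not called. AT3G07850 had a difference of 1.36 ± 0.44, which was called with total reads (2.22), with TMM factors (1.55) and without WT FTL replicate 2 (1.48).

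Other genes of pectin breakdown were counted from lists, against the same 14.3% of features called in pLAT52::RTL1 against WT Col-0. Of 7 pollen pectin methylesterases, which remove methyl groups from pectin, 3 rose and 3 fell. PPME1 (AT1G69940) rose by 2.29 ± 0.44 on the log2 scale (DESeq2 adjusted p 4.00e-06) and AT5G07420 by 1.86 ± 0.24 (DESeq2 adjusted p 4.89e-13), whereas AT5G07430 fell by 2.26 ± 0.19 (DESeq2 adjusted p 1.85e-31) and VGDH2 (AT3G62170) fell by 1.75 ± 0.17 (DESeq2 adjusted p 1.05e-23). The list's median was -0.27, against -0.01 over all features tested. edgeR called the same numbers, and with total reads 3 rose and 2 fell.

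Pectate lyases cut demethylated pectin. Of 5 pollen pectate lyases 4 could be tested, 2 fell and none rose, with a median log2 fold change of -0.52. AT3G01270, with 896523 and 1050372 reads (WT Col-0) and 294390 and 239317 (pLAT52::RTL1), fell by 2.46 ± 0.16 (DESeq2 adjusted p 3.37e-49), and AT59 (AT1G14420) fell by 0.87 ± 0.17 (DESeq2 adjusted p 3.63e-06). With total reads AT59 was no longer called and AT5G15110 rose by 0.43. The pectin methylesterase inhibitor PMEI1 (AT1G48020) fell by 1.53 ± 0.15 (DESeq2 adjusted p 4.72e-21), and PMEI2 (AT3G17220), at 1.52 ± 1.04, did not pass.

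None of the 4 GAUT genes of homogalacturonan synthesis was called by DESeq2 or edgeR, with a median of -0.02, and 1 rose when scaled by total reads. The 11 other polygalacturonases of the list, floral abscission and vegetative genes among them, together made up at most 18.0 CPM in any library. Only 2 of these 11 could be tested, of which none was called by DESeq2 or edgeR and 1 was higher with total reads. PGX3 (AT1G48100), an enzyme of stomata, had 114 and 125 reads (WT Col-0) and 362 and 790 (WT FTL) and rose by 2.31 ± 0.48 between them (DESeq2 adjusted p 2.31e-05). AT1G70370, described as polygalacturonase 2, had 164 and 166 reads (WT Col-0) and 74 and 16 (WT FTL) and fell by 1.97 ± 0.65 (DESeq2 adjusted p 0.0116). These were 2 of 3 genes of the list tested in that comparison, where 30.3% of all features were called. Because RefSeq describes most polygalacturonases only by superfamily, this list is not complete. The inhibitors PGIP1 and PGIP2 had at most 6 reads in any library.

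In pMGH3::RTL1 against WT Col-0 and in nrpd1a-3 FTL against WT FTL, no gene of these pectin lists was called by DESeq2, with total reads as size factors or by edgeR. In WT FTL against WT Col-0, 3 of 7 pectin methylesterases fell and none rose, with VGD1 (AT2G47040) at -2.56 ± 0.37 (DESeq2 adjusted p 2.59e-10), where 30.3% of all features were called. Of 4 pectate lyases tested, AT2G02720 (-2.34 ± 0.27, DESeq2 adjusted p 5.77e-16) and AT3G01270 (-1.62 ± 0.35, DESeq2 adjusted p 3.41e-05) fell, and AT5G15110 rose by 0.94 ± 0.25 (DESeq2 adjusted p 0.00124), a call lost with total reads. Of 4 GAUT genes, GAUT14 (AT5G15470, -1.09 ± 0.24, DESeq2 adjusted p 7.76e-05) and GAUT7 (AT2G38650, -1.42 ± 0.58, DESeq2 adjusted p 0.0494) fell, the latter not with total reads. The inhibitor PMEI1 rose by 2.20 ± 0.48 (DESeq2 adjusted p 5.38e-05). PMEI2, with at most 49 reads in a library, was also called higher by DESeq2, but not with edgeR or with total reads. Reads of PMEI1 numbered 50453 and 63112 without sorting and 180147 and 328150 in WT FTL.

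Levels of cell type markers also differed between groups. Vegetative cell markers summed to 8431 to 8483 CPM in WT Col-0, 7701 to 8341 in pMGH3::RTL1, 5028 to 6040 in pLAT52::RTL1, 3936 to 4575 in WT FTL and 2871 to 3323 in nrpd1a-3 FTL, and 5 of 10 fell and 1 rose in pLAT52::RTL1 against WT Col-0 (DESeq2), or 5 fell and 3 rose with total reads. Sperm cell markers summed to 540 to 588 in WT Col-0 and 573 to 767 in pLAT52::RTL1, with 1 of 10 lower by DESeq2, none by edgeR and 1 higher with total reads. Their sums were 533 to 630 in pMGH3::RTL1, 590 to 931 in WT FTL and 435 to 719 in nrpd1a-3 FTL. Leaf markers were at 19.3 to 20.6 in WT Col-0 and 22.3 to 36.1 in pLAT52::RTL1, with 3 of 5 tested higher. Most leaf marker reads in WT Col-0 were of RBCS3B (793 and 1029), which was not called in pLAT52::RTL1 (-0.19 ± 0.25). In pMGH3::RTL1 leaf markers were at 22.0 to 27.7, with 1 of 10 tested higher and no member called. They were at 1.53 to 3.59 in WT FTL and at 0.430 to 19.0 in nrpd1a-3 FTL. The 19.0 was replicate 1, where RBCS1A had 296 reads, CAB1 263 and RBCS3B 123. The tapetum markers A9, ATA7, MS1 and GRP17 had no read. In WT FTL against WT Col-0, 6 of 10 vegetative cell markers fell and 1 rose, 1 of 10 sperm cell markers fell and 1 rose, and 2 of 10 leaf markers fell (DESeq2). The part of these differences in the members' values was not tested.

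The mean profile of the members over the 10 libraries, as centred log2 normalised counts plus 1, was high in WT Col-0 and pMGH3::RTL1 (0.52 to 0.70), intermediate in pLAT52::RTL1 (0.07 and 0.14) and low in the sorted libraries (-0.93 to -0.20). Single members followed it to different degrees, with Pearson's r of 0.92 for AT5G48140, 0.88 for AT3G14040 and 0.05 for AT1G02790. Each of these members is itself part of the mean. The mean also holds AT3G07830 and AT3G07840, whose counts followed those of AT3G07820 and were close to those of the intervals beside them. Among 1820 other genes with a mean of at least 1000 normalised counts, the 5 most like the mean profile were the aspartic proteinase gene APA1 (AT1G11910, r 0.989), the cytochrome P450 gene CYP91A2 (AT4G37430, 0.988), the BEACH-domain gene SPI (AT1G03060, 0.985), the ATPase gene AT1G26130 (0.980) and the RhoGAP gene REN1 (AT4G24580, 0.978). These values are over 10 libraries that share 2 experiments and their depth, and the step between the experiments is part of each.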

How the data were processed

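Pollen mRNA of 10 libraries in 5 groups was sequenced as paired 100-base reads and aligned by the authors with STAR to TAIR10. The authors deposited raw read counts for each gene, TE and intergenic interval, while the program that counted, whether it used strand and how it treated multiply aligned reads are not given in the sources used here. In each library 65.7% to 74.8% of features with more than 20 reads had even counts, so that the 2 mates of a pair may have been counted singly, and counting intervals may be too narrow.

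Counts of all genes and TEs were fitted with DESeq2 1.42.0 (R 4.3.3; median-of-ratios size factors, Wald test, Benjamini-Hochberg adjusted p under 0.05), with the 6 libraries of the RTL1 experiment, the 4 sorted libraries or, between experiments, all 10. Alternatives were edgeR 4.0.16 (quasi-likelihood), TMM factors, total reads, size factors without the most abundant features, other filters and fits, a replicate block and leaving out each library. Transcript lengths and sequences came from RefSeq on TAIR10.1. Scripts were tested on simulated data.

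The members and lists were chosen with earlier results of these data known. Named genes were the members, the label checks, some cell type markers and the 5 genes most like the members' mean. Of each list, up to 2 highest and 2 lowest called genes in a comparison were named. The authors describe the mRNA libraries of each construct as coming from 2 independent lines, which the labels do not name. Replicates of the sorted groups may be separate sorts. The p-values measure only the spread between these libraries. No table of protein or promoter sequences was used here.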

Additional observations from a re-analysis of the deposited data

Results flagged for a closer look

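For AT1G02790, the difference between the effects of pLAT52::RTL1 and nrpd1a-3 FTL was called by DESeq2. The log2 difference was -2.23 ± 0.44, from -2.57 in pLAT52::RTL1 against WT Col-0 and -0.42 in nrpd1a-3 FTL against WT FTL, each from its own experiment's fit. The gene had 246404 and 176772 reads in pLAT52::RTL1, below both WT Col-0 libraries, whereas the libraries of nrpd1a-3 FTL and WT FTL overlapped. The difference was not called with edgeR (-2.18) or with total reads (-1.35). The counts that chose the gene include those of this contrast, so this is a description and does not show that the effects differ.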

How the results depend on the processing

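Of 581 fold changes of members recomputed under the alternatives, 516 moved by less than the replicate spread, 63 moved by more and 2 changed the sign of a called value. A further 26 values that were not called in the reported fit changed sign. Both changes of a called value were AT3G07830 with the interval reads subtracted, at 0.43 in pLAT52::RTL1 against WT Col-0 and 0.45 against pMGH3::RTL1, where 3 members were then called.

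For features called, total reads gave 3294 in pLAT52::RTL1 against WT Col-0 (2874 higher and 420 lower, against 718 and 855), 3124 against pMGH3::RTL1, 1 in nrpd1a-3 FTL against WT FTL and 1001 in the difference of effects. A fit of all 10 libraries gave 681, 587 and 28 for the first 3 of these comparisons and 2 in pMGH3::RTL1 against WT Col-0, where the 4 libraries compared gave 12. edgeR gave 1 in pMGH3::RTL1 against WT Col-0, 1 in nrpd1a-3 FTL against WT FTL, and 0 features and 0 members in the difference of effects, where TMM factors gave 2 members. At least 10 counts in 2 libraries gave 5 in nrpd1a-3 FTL against WT FTL. The causes were not tested.

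Leaving out 1 library gave 701 (without WT Col-0 replicate 1) to 2287 (without pLAT52::RTL1 replicate 2) in pLAT52::RTL1 against WT Col-0, 1 to 4 in pMGH3::RTL1 against WT Col-0, 659 to 2047 in pLAT52::RTL1 against pMGH3::RTL1, 1 to 42 in nrpd1a-3 FTL against WT FTL, 3013 to 5306 in WT FTL against WT Col-0 and 159 to 935 in the difference of effects. Members called ranged from 3 to 6 in WT FTL against WT Col-0 and from 1 to 2 in the difference. Where 1 library was left in a group, it was assumed to vary like the others.

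With the replicate number as a block, 407 features were called in nrpd1a-3 FTL against WT FTL in place of 2, and no member's call changed. Both sorted populations came from F1 plants and were sorted at the same time, but the labels do not say that a number marks a shared sort. Deviations of same-numbered libraries correlated at 0.55 in that comparison and at -0.04 to 0.23 in the other 4. Within same-numbered sorted libraries, normalised counts were lower in nrpd1a-3 FTL for both numbers in 4 members and for 1 number in the other 3 (AT3G07850, AT3G14040 and AT5G48140). As shares of gene and TE reads, these 3 were lower in nrpd1a-3 FTL for both numbers, so their direction depended on the scaling. For AT3G07850 the shares were 0.0983% and 0.0672% (WT FTL) and 0.0868% and 0.0564% (nrpd1a-3 FTL). For AT3G14040 they were 0.0801% and 0.0438% against 0.0696% and 0.0349%, and for AT5G48140 0.305% and 0.125% against 0.140% and 0.0992%.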
